A study of Mus musculus with 13 samples.

Results

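Alveolar macrophages of mice that received both metformin and particulate matter (PM) were compared with those of mice that received neither. The comparison asked which genes lie at control level when the drug accompanies the particles, which stay changed and which are called then but not with particles alone. Libraries were chosen by their labels alone, 3 labelled metformin with PM (replicates 1, 3 and 4) and 4 labelled vehicle with phosphate-buffered saline (PBS; replicates 1 to 4), which makes 7 of the 13 libraries in the series. The metformin with PM mice drank 100 mg/kg/day of metformin starting 24 h before 10 µg of a standardized PM was placed in the trachea of each animal, and their cells were taken 24 h after the instillation. The vehicle with PBS mice are labelled with vehicle in place of the drug and PBS in place of the particles. Both groups are wild-type male C57Bl/6 mice aged 10 weeks, and the macrophages were sorted by flow cytometry from the lung. The labels give 1 library per replicate and call the replicates biological. Drug and particles differ together between the 2 groups, so this contrast alone does not separate them. For that, 3 libraries labelled vehicle with PM (replicates 1, 2 and 3) and 3 labelled metformin with PBS (replicates 1, 3 and 4) stood beside it.

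Alveolar macrophages live in the airspaces, where they clear surfactant lipid and inhaled particles and are among the first cells to release cytokines when particles arrive. NF-kB, a family of transcription factors held in the cytosol by inhibitors such as IκBα until a danger signal frees them, drives many of these cytokine genes and also the inhibitors that end the response. Metformin, a biguanide used in diabetes, inhibits complex I of the mitochondrial respiratory chain and activates AMP-activated protein kinase in several cell types. Heat shock factors and the unfolded protein response raise chaperones of the cytosol and of the endoplasmic reticulum when proteins misfold.

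Reads assigned to genes came to 6514625 to 8100538 per library with metformin and PM and to 5567481 to 6362497 with vehicle and PBS. Levels are given as counts-per-million (CPM) after scaling, and a change is a log2 fold change with its standard error (SE). Libraries of each group correlated across genes at r = 0.9916 to 0.9924 with metformin and PM and at 0.9873 to 0.9907 with vehicle and PBS, and no 2 libraries of a group agreed within sampling noise. The defining genes of the sorted cell type were present in both groups. Siglecf, a surface lectin used to identify alveolar macrophages, lay at 477 to 547 CPM with metformin and PM and at 543 to 587 CPM with vehicle and PBS. Marco, a scavenger receptor, lay at 415 to 536 CPM with metformin and PM and at 261 to 431 CPM with vehicle and PBS. Ly6g, a defining neutrophil gene, had 0 counts in all 7 libraries. Mouse numbers in the titles run in order through the groups, so order of handling and group cannot be told apart.

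Joint exposure shifted the level of many genes by small amounts and of few genes by large ones. edgeR's quasi-likelihood test was run on 11906 genes, of which 979 were higher (8.22%) and 864 lower (7.26%) with metformin and PM than with vehicle and PBS at a Benjamini-Hochberg adjusted p under 0.05, which is 15.5% of the genes tested. Such genes are said here to be called. More than 2-fold changes were seen for 166 of the called genes that rose and 42 of those that fell. The median change over all genes was 0.00172. The libraries of the 2 groups did not overlap for 3047 genes (25.6% of those tested), among them 915 of the 979 that rose and 812 of the 864 that fell. In a mixed sample, fewer cells of a type and less RNA per cell cannot be told apart, which holds for every change below.

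**Figure D1:**
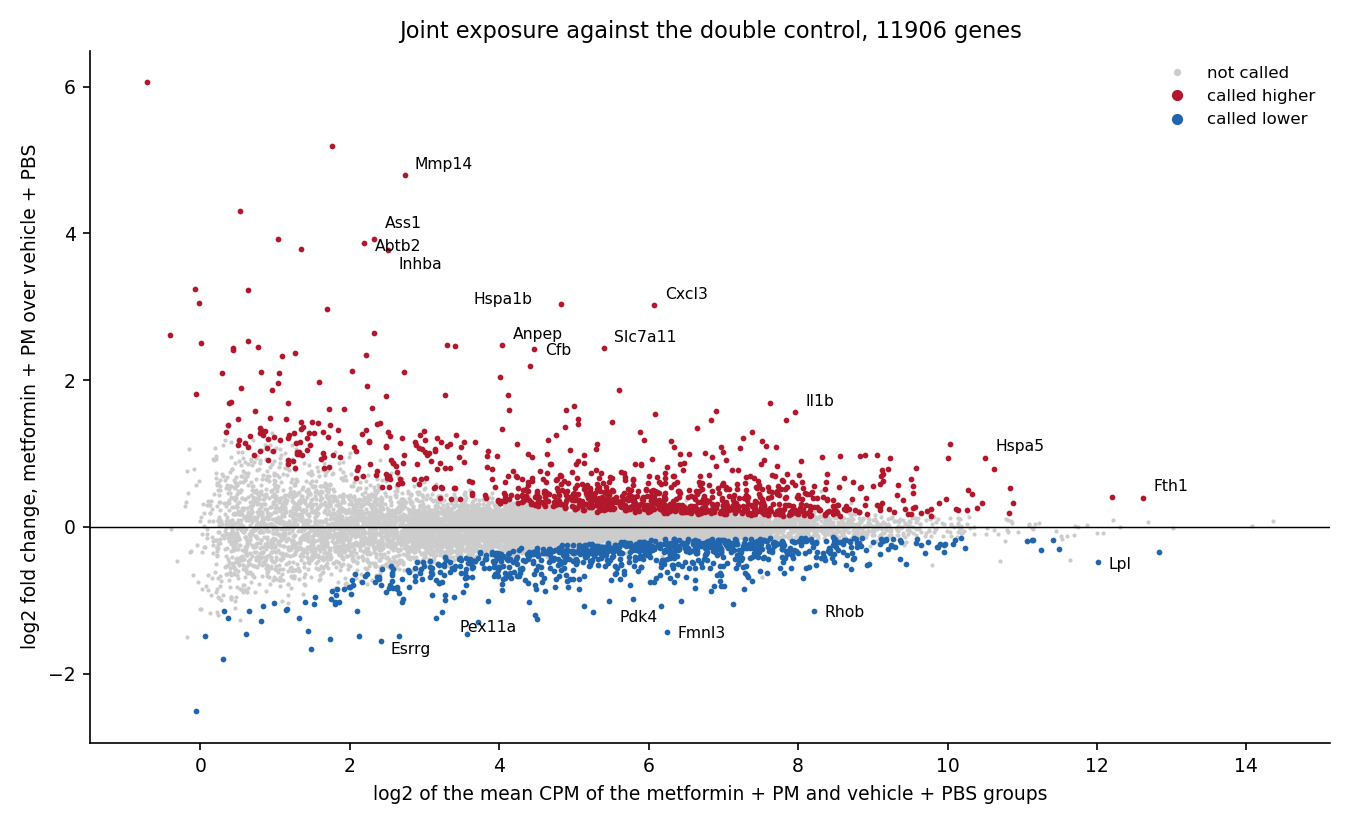
Log2 fold change of metformin with PM over vehicle with PBS (y axis) against log2 mean CPM of both groups (x axis) for 11906 genes, each point 1 gene. The 979 called rises (red) reach further from 0 than the 864 called falls (blue), and the largest rises are of genes with low CPM.

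The rises described first are among the 15 largest of called genes whose groups did not overlap and whose higher group averaged 5 CPM or more. Mmp14, a membrane-anchored metalloproteinase that cleaves matrix (chromosome 14, 54431604 to 54441258 on mm10), had 13.8, 12.5 and 12.3 CPM with metformin and PM, against 0.95, 0.47, 0.159 and 0.179 CPM with vehicle and PBS. Every joint exposure library lay far above every control library, for a change of 4.79 ± 0.39 (SE; edgeR adjusted p = 7.24e-08). Leaving out vehicle PBS 1 moved this change to 5.46. Ass1, an enzyme that makes arginine from citrulline, had 11.1, 10.6 and 6.69 CPM against 0.633, 0.47, 1.12 and 0.179 CPM (3.93 ± 0.32; edgeR adjusted p = 7.24e-08). Inhba, which encodes a subunit of activin A, rose by 3.77 ± 0.35, and the antigen-presentation relative H2-M2 by 5.19 ± 0.50 (6.49 without vehicle PBS 2). Anpep, a cell-surface aminopeptidase (chromosome 7, 79821803 to 79848210), had 24.9, 31.3 and 27.4 CPM against 4.59, 5.33, 4.46 and 5.72 CPM. That is a change of 2.47 ± 0.15, and its libraries within each group lay close together. Cfb, complement factor B, rose by 2.43 ± 0.14 and the cystine transporter gene Slc7a11 by 2.44 ± 0.21. The same 15 also hold Abtb2, Cxcl3, Hspa1b and Hspa1a, described below, and the immunoglobulin gene Igha (2.65 ± 0.49). Mmp14, Ass1, Inhba, H2-M2 and Abtb2 had at most 9 counts in any vehicle PBS library. Like Igha, they passed the filter on low counts only through the PM groups. That these genes rose rather than fell was therefore largely set by the filter.

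The falls described next were chosen by the same limits. Esrrg, a nuclear receptor that promotes oxidative metabolism, had 2.98, 2.67 and 2.33 CPM with metformin and PM, against 6.96, 6.89, 7.65 and 10.4 CPM with vehicle and PBS. The groups did not overlap (−1.56 ± 0.20; edgeR adjusted p = 2.42e-05). Batf3, a transcription factor best known from dendritic cell development, fell by 1.49 on the log2 scale and Fmnl3, an actin-assembling formin, by 1.43. Fmnl3 lay at 45.2, 39.6 and 38.4 CPM against 133, 103, 89.8 and 116 CPM, so that no library of one group came near the other.

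To sort the called genes, each was read against 3 further comparisons from the same fit. PM alone (vehicle with PM against vehicle with PBS) called 578 genes (4.85%), joint exposure against PM alone (metformin with PM against vehicle with PM) called 820 (6.89%), and metformin alone (metformin with PBS against vehicle with PBS) called 365 (3.07%). These comparisons share libraries, so the classes are descriptions and their counts carry no test. Of the 578 genes that PM alone changed, 380 were also called under joint exposure and 198 were not. For the 309 that rose with PM alone, the median change was 0.487 under joint exposure and 0.548 with PM alone. For the 269 that fell, the median was −0.297 under joint exposure and −0.357 with PM alone. Picking genes by the PM-alone call by itself enlarges their PM-alone median, so these gaps do not measure an effect of the drug.

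**Figure D2:**
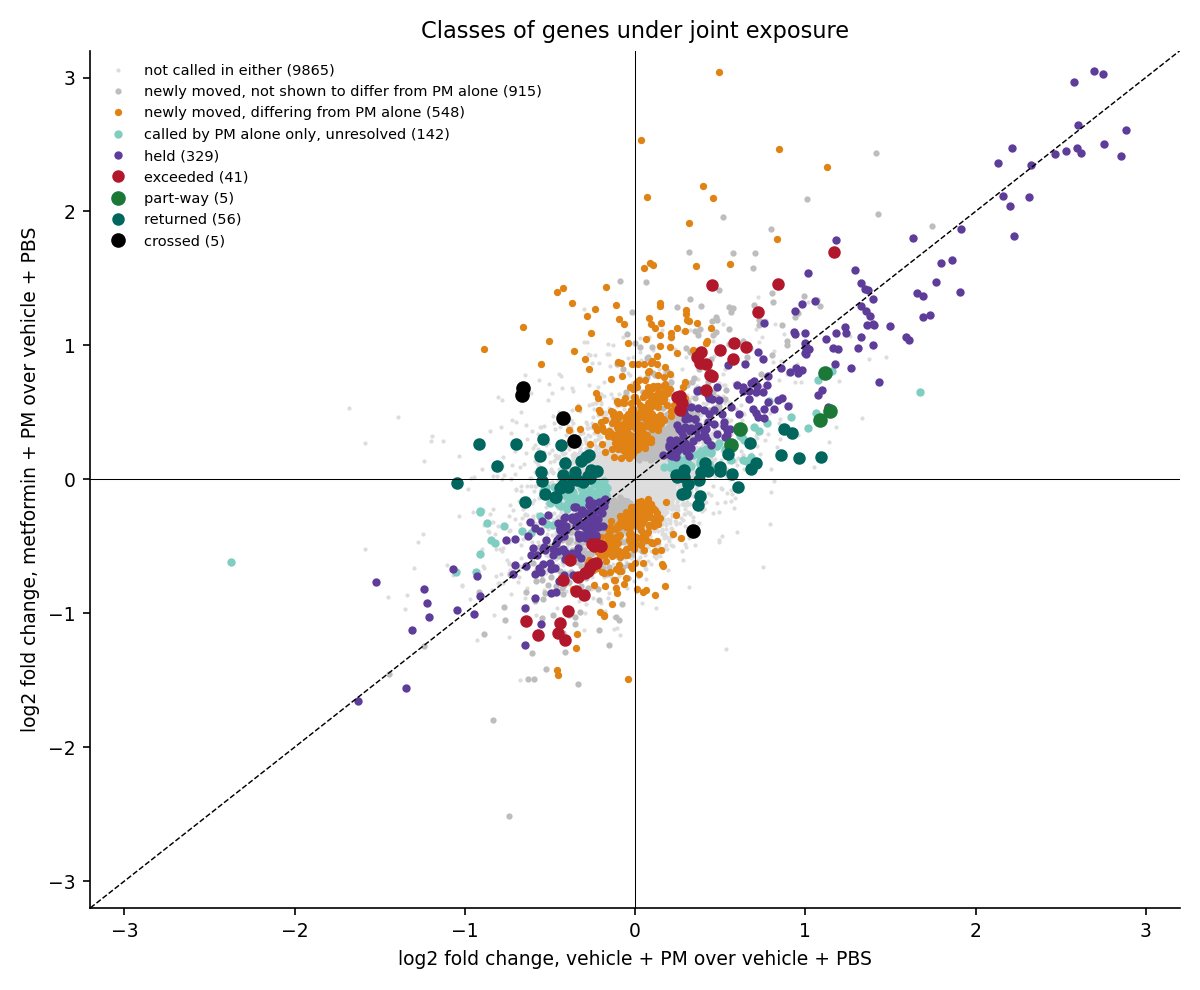
Log2 fold change over vehicle with PBS under joint exposure (y axis) against that with PM alone (x axis), each point 1 of the genes tested, coloured by class with the number of genes in brackets; the dashed line marks equal changes and 11 genes lie outside the axes. The 329 held genes follow the dashed line, the 56 returned genes lie along the horizontal line at 0, and the 548 newly moved genes that differ from PM alone lie along the vertical line at 0.

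A gene was called returned when PM alone changed it, joint exposure differed from PM alone in the opposite direction, and joint exposure was not called against control. There were 56 such genes, 9.69% of those changed by PM alone, of which 26 had risen and 30 had fallen with PM alone. For 49 of them the 95% interval of the joint change lay within 1.5-fold of control on both sides. The vehicle with PM libraries enter both defining tests with opposite signs, so an unusual value there moves a gene towards this class. The count was 26 without vehicle PM 2 and 33 without metformin PM 1. Through the leave-outs of all 10 libraries of the 3 groups, 14 of the 56 kept this class, among them Acaa1b, Ankrd44, C5ar1, Cidec, Dusp1, Fos, Icam1, Nrp2, Reps2, Rhof, Sema4b, Sgk1 and Slc15a3.

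Adhesion and early response genes stood among those that had risen with PM alone. Icam1, an adhesion molecule that binds leukocyte integrins (chromosome 9, 21015960 to 21028797), had 117, 119 and 118 CPM with metformin and PM, 158, 148 and 165 CPM with vehicle and PM, and 114, 109, 109 and 111 CPM with vehicle and PBS. The joint exposure libraries lay just above the control libraries and the vehicle with PM libraries far above both. The joint change was 0.09 ± 0.05 with a 95% interval of −0.02 to 0.20. Fos, a subunit of the AP-1 transcription factor (chromosome 12, 85473890 to 85477273), had 1993, 2468 and 2175 CPM with metformin and PM, 3191, 3122 and 3244 CPM with vehicle and PM, and 1637, 2195, 2540 and 2226 CPM with vehicle and PBS. Joint exposure libraries lay inside the control range (0.04 ± 0.10, interval −0.17 to 0.25). Dusp1, a phosphatase that switches off stress kinases, had 794, 923 and 821 CPM with metformin and PM, 1350, 1229 and 1440 CPM with vehicle and PM, and 645, 949, 1060 and 867 CPM with vehicle and PBS. Joint exposure differed from PM alone by −0.66 ± 0.12 (edgeR adjusted p = 0.00164). The kinase gene Sgk1 and the neuropilin gene Nrp2 also lay highest with vehicle and PM. Their joint changes against control were −0.04 ± 0.06 for Sgk1 and 0.06 ± 0.09 for Nrp2.

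Genes that had fallen with PM alone and lay at control level under joint exposure included receptors and lipid storage genes. C5ar1, the receptor for complement fragment C5a (chromosome 7, 16246743 to 16259540), had 479, 462 and 520 CPM with metformin and PM, 386, 355 and 397 CPM with vehicle and PM, and 465, 486, 506 and 479 CPM with vehicle and PBS. Joint exposure and control overlapped throughout, and PM alone lay below both (joint change 0.01 ± 0.06, interval −0.12 to 0.13). Cidec, a lipid droplet protein, had 427, 390 and 414 CPM with metformin and PM, 351, 315 and 311 CPM with vehicle and PM, and 384, 421, 428 and 416 CPM with vehicle and PBS. The joint change was 0.17 ± 0.10 for Sema4b, a semaphorin, and 0.12 ± 0.07 for Reps2, an endocytosis adaptor. Slc30a1, which exports zinc, and Ndrg1, which is induced by hypoxia, were also in this class. Ndrg1 left it without vehicle PM 2, and Slc30a1 without any 1 of vehicle PM 1, vehicle PM 3 and vehicle PBS 1.

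**Figure D3:**
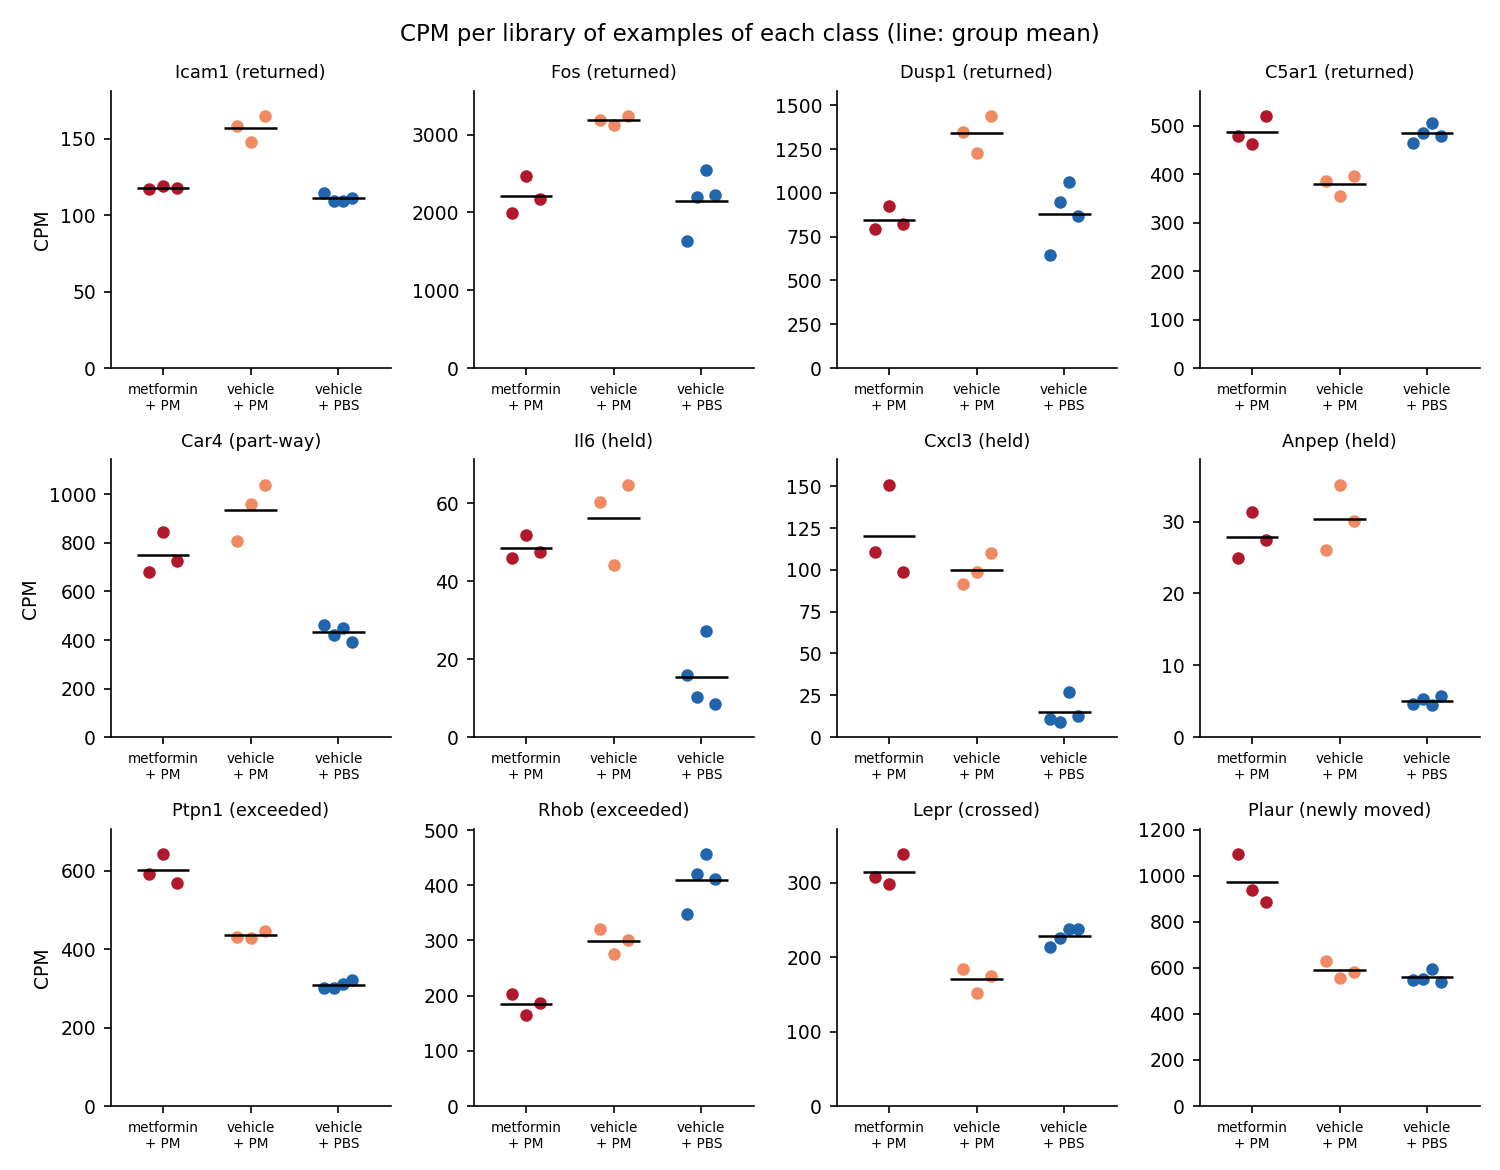
CPM per library (points) with the group mean (line) of 12 genes in the metformin with PM, vehicle with PM and vehicle with PBS groups; each y axis starts at 0. Icam1, Fos and Dusp1 are high with vehicle and PM only, Il6, Cxcl3 and Anpep are high in both PM groups, and Plaur is high with metformin and PM only.

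A further 142 genes were changed by PM alone but called neither under joint exposure nor between joint exposure and PM alone, so that return and hold cannot be told apart for them. For 115 of these the 95% interval of the joint change lay within 1.5-fold of control. The 142 became 55 without vehicle PM 2 and 76 without vehicle PM 3. Siglecf was one of them (−0.14 ± 0.05; edgeR adjusted p = 0.062). It was called lower under joint exposure without metformin PM 4 (−0.19) or vehicle PBS 3 (−0.16), and under 3 of the other settings tried.

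Part-way genes, which stayed above control but lay below PM alone, numbered 5. Car4, a carbonic anhydrase on the surface of alveolar macrophages, had 679, 843 and 725 CPM with metformin and PM, 810, 959 and 1040 CPM with vehicle and PM, and 464, 422, 451 and 394 CPM with vehicle and PBS. Its joint exposure libraries lay above all control libraries, and 1 of them reached into the range with vehicle and PM (joint change 0.79 ± 0.09). The chemokine-binding receptor gene Ccrl2, the matrix protein gene Tgfbi, the nuclear coactivator gene Pnrc1 and the sterol enzyme gene Sqle completed the class. None of the 5 kept it through all the single-library leave-outs. The class held 1 gene without metformin PM 1, 2 without metformin PM 4, vehicle PBS 2 or vehicle PM 3, and 10 without vehicle PBS 3, and the joint change of Ccrl2 was not called without metformin PM 3 (0.44). Sqle was at the threshold (edgeR adjusted p = 0.0495) and was not called without metformin PM 3 or 4 or any 1 of the 4 vehicle PBS libraries, nor without vehicle PM 3. Its call was also absent with limma-voom, DESeq2 size factors, upper quartile scaling, library totals, the stricter filter on low counts and libraries thinned to equal totals. Pnrc1 was not called without metformin PM 1 or 4 or without vehicle PBS 1, 2 or 4.

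Held genes, changed the same way by PM alone and under joint exposure with no call between those, formed the largest class of the PM-changed genes, with 329 of 578 (56.9%). Of these 192 were higher and 137 lower. The higher ones had a median change of 0.688 under joint exposure and 0.754 with PM alone, and a median of −0.0388 between metformin with PM and vehicle with PM. The absence of a call between those groups does not show that they were equal. Across the leave-outs 137 of the 329 kept this class. Mmp14, Ass1, Inhba, Anpep, Cfb and H2-M2 above all belong here. With no filter on low counts, H2-M2, Inhba, Cxcl3 and Il1b were called further from control than with PM alone. H2-M2 was also called so in the fit of the compared groups alone. It had 5.59, 8.15 and 6.07 CPM with metformin and PM and 2.54, 4.51 and 4.39 CPM with vehicle and PM. For Anpep the vehicle with PM libraries lay at 26.0, 35.1 and 30.1 CPM, and joint exposure differed from them by −0.12 (edgeR adjusted p = 0.626). Among the held falls were Acot1, a cytosolic thioesterase induced by fatty acids (38.7, 38.0 and 42.2 CPM with metformin and PM, 67.4, 62.2, 56.4 and 61.3 CPM with vehicle and PBS; −0.65 ± 0.07), and Pdk4, a kinase that restrains pyruvate oxidation (−1.01 ± 0.17). Acot1 was also called lower with metformin alone (−0.414 ± 0.075, edgeR adjusted p = 0.00496).

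A group of 41 genes moved further under joint exposure than with PM alone, 20 upward and 21 downward. Ptpn1, a tyrosine phosphatase that dampens insulin and cytokine receptors, had 592, 644 and 568 CPM with metformin and PM, 432, 428 and 446 CPM with vehicle and PM, and 301, 300, 311 and 322 CPM with vehicle and PBS. The 3 groups formed separate steps (joint change 0.96 ± 0.05; edgeR adjusted p = 1.3e-09). The interleukin 4 receptor gene Il4ra rose by 0.95 ± 0.07 and was 0.56 ± 0.07 above PM alone. Fkbp5, a chaperone partner induced by glucocorticoids, had 315, 343 and 351 CPM with metformin and PM, 251, 228 and 176 CPM with vehicle and PM, and 124, 120, 142 and 103 CPM with vehicle and PBS. Abtb2, an ankyrin repeat protein, rose by 3.87 ± 0.30 under joint exposure and 2.06 ± 0.39 with PM alone. Downward, Rhob, a small GTPase of endosomes, had 204, 165 and 186 CPM with metformin and PM, 321, 275 and 300 CPM with vehicle and PM, and 348, 421, 457 and 412 CPM with vehicle and PBS. The count of this class was 20 without vehicle PM 1, 26 without vehicle PM 2 and 24 without vehicle PM 3, while Ptpn1, Il4ra, Fkbp5, Abtb2 and Rhob kept it throughout the leave-outs.

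Crossed genes, which lay on the other side of control under joint exposure than with PM alone, also numbered 5. Lepr, the leptin receptor (chromosome 4, 101717404 to 101815352), had 308, 298 and 339 CPM with metformin and PM, 184, 152 and 175 CPM with vehicle and PM, and 213, 226, 238 and 238 CPM with vehicle and PBS. Control libraries thus lay between the 2 PM groups, with a joint change of 0.46 ± 0.07 and a PM-alone change of −0.42 ± 0.07. Lepr was the 1 gene that kept this class through the leave-outs, which left 2 genes in it without vehicle PBS 4 or vehicle PM 2 and 3 without vehicle PBS 2 or 3. Ece1, which activates endothelin, and Hsd11b1, which regenerates active glucocorticoid, moved in the same directions as Lepr, and Tbc1d2, a Rab GTPase regulator, in the opposite ones. The fifth, the lipoprotein receptor relative Lrp4, was at the threshold (edgeR adjusted p = 0.0495) and was not called without metformin PM 1 or 3, vehicle PBS 1, 2 or 3, or any 1 of the vehicle PM libraries. The same 6 other settings that ended the call of Sqle ended that of Lrp4, as did the fit of the compared groups alone.

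The larger share of the calls under joint exposure, 1463 of 1843, fell on genes that were not called with PM alone, which does not show that PM alone left them unchanged. For 548 of these (331 higher, 217 lower) joint exposure also differed from PM alone in the same direction, and for 915 (427 higher, 488 lower) it did not pass that test. The 427 had a median of 0.324 under joint exposure and 0.14 with PM alone, and the 488 a median of −0.326 under joint exposure and −0.158 with PM alone. Both sets were picked by the joint call, which by itself enlarges the joint median, so these gaps do not measure an effect of the drug. Metformin alone was called in the same direction for 60 of the 548 and 39 of the 915. The 548 became 299 without metformin PM 1 and 323 without vehicle PM 2, and the 915 became 591 without metformin PM 3. Of the 548 genes, 195 kept their class through the leave-outs. Plaur, the receptor of urokinase (chromosome 7, 24462500 to 24475873), had 1095, 939 and 885 CPM with metformin and PM, 628, 557 and 582 CPM with vehicle and PM, 630, 500 and 536 CPM with metformin and PBS, and 546, 553, 597 and 537 CPM with vehicle and PBS. Its joint exposure libraries lay above all 10 others, while metformin alone changed it by −0.01 and PM alone by 0.08, neither of them called (joint change 0.80 ± 0.08; edgeR adjusted p = 4.68e-07). Gpr171, a G protein-coupled receptor of immune cells, had 25.8, 27.8 and 25.2 CPM with metformin and PM and 5.42 to 10.6 CPM in the other 10 libraries. Dusp16, a phosphatase of stress kinases, rose by 1.43 ± 0.14, and Cytip, which regulates integrin adhesion, by 1.13 ± 0.09. Cytip was called higher with PM alone too when no filter on low counts was used or vehicle PBS 3 was left out. Lower genes included Tfeb, the master regulator of lysosome genes (48.8, 47.0 and 49.2 CPM with metformin and PM, 84.4, 79.4, 78.8 and 82.5 CPM with vehicle and PBS; −0.75 ± 0.07), and Bhlhe41, a repressor that maintains alveolar macrophage identity (−0.80 ± 0.11). Fgr, a Src family kinase of myeloid cells, fell by 0.41 on the log2 scale and lay 0.46 lower than in PM alone.

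Counts of list members here and below are to be read beside the 8.22% higher and 7.26% lower over all genes. Of 21 cytokine and chemokine genes tested, 16 rose and 1 fell under joint exposure, with a median change of 0.958 against 0.00172 over all genes, and 10 of the 21 were in the held class. The 1 that fell was not called without metformin PM 3 or 4 or without vehicle PBS 3 or 4. Of 29 NF-kB subunits and feedback genes, 21 rose and 0 fell, with a median of 0.599, and 15 were held while 1, Icam1, was returned. To show the binding letters beside these values, the 250 bases before the RefSeq start site (GRCm38.p6) of held Il6 and Cxcl1 and of returned Icam1 are printed 5′ to 3′, with the NF-kB motif GGANTTTCC, sought on both strands, in capitals.
Il6, chr5:30012864-30013113, plus strand: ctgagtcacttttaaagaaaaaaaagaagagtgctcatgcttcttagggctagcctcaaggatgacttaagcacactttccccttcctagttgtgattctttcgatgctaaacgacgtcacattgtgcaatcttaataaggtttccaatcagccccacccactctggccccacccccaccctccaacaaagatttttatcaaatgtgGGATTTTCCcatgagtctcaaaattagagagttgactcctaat
Cxcl1, chr5:90890995-90891244, plus strand: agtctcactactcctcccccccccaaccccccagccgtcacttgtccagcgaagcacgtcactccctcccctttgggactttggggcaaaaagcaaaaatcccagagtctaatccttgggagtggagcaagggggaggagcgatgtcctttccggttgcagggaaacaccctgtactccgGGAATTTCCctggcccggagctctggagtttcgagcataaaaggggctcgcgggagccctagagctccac
Icam1, chr9:21015690-21015939, plus strand: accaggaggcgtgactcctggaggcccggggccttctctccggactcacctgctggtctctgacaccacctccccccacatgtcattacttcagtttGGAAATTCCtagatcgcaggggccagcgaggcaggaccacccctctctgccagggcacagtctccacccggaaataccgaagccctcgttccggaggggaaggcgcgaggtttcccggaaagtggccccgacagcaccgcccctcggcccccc
Held and returned genes alike can carry the motif, which lay 43 bases before the start site in Il6, 70 in Cxcl1 and 153 in Icam1. In windows that add 50 bases after the start, 1.70% of the 9024 tested genes with a RefSeq promoter held the motif, against 9.72% of the held genes that rose (14 of 144) and 0.398% of the newly moved genes that rose and differed from PM alone (1 of 251). Among returned genes the motif was held by 1 of 21 that rose with PM alone, which is Icam1, and by 1 of 24 that fell. Newly moved genes that fell and differed from PM alone held it in 5 of 161 (3.11%). Only promoters with a match were printed. A match is a description of letters and shows no binding.

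Il6, an acute phase cytokine (chromosome 5, 30013161 to 30019968), had 45.8, 51.9 and 47.5 CPM with metformin and PM, 60.2, 44.0 and 64.7 CPM with vehicle and PM, and 15.8, 10.2, 27.1 and 8.40 CPM with vehicle and PBS. Both PM groups lay above all control libraries and overlapped each other (joint change 1.64 ± 0.26; edgeR adjusted p = 0.000175). The difference between joint exposure and PM alone was −0.22 ± 0.24 (edgeR adjusted p = 0.671). Cxcl3, a neutrophil attractant, rose by 3.02 ± 0.24 under joint exposure and by 2.75 ± 0.25 with PM alone, and its relative Cxcl1 by 1.35 ± 0.17 under joint exposure and by 1.40 ± 0.18 with PM alone. Il1b, which encodes the fever cytokine interleukin 1β, had 345, 412 and 359 CPM with metformin and PM, 319, 252 and 351 CPM with vehicle and PM, and 128, 105, 156 and 113 CPM with vehicle and PBS. Tnf rose by 0.98 ± 0.28 (edgeR adjusted p = 0.0225), a call that was absent with DESeq2, without metformin PM 3 or 4 and without vehicle PBS 2 or 4.

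Feedback inhibitors of the pathway moved with the cytokines. Nfkbia, which encodes IκBα, rose by 0.97 ± 0.21, Socs3, an inhibitor of cytokine receptor signalling, by 1.87 ± 0.17, and the mitochondrial superoxide dismutase gene Sod2 by 0.83 ± 0.08. Ccl2, a monocyte attractant, did not follow this pattern. It had 13.9, 13.6 and 16 CPM with metformin and PM, 6.07, 4.51 and 6.83 CPM with vehicle and PM, and 7.28, 7.36, 9.25 and 5.72 CPM with vehicle and PBS. The joint exposure libraries lay above all the others (joint change 0.96 ± 0.15; 1.32 ± 0.17 against PM alone).

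Chaperone genes of the cytosol and the endoplasmic reticulum (ER) were mostly newly moved. Of 25 heat shock genes tested, 17 rose and 0 fell (median 0.487), while PM alone called 1, and 13 of the 25 were newly moved and differed from PM alone. Metformin alone called 10 of the 25 higher, so that newly moved here means not called with PM alone. Of 27 ER stress genes, 20 rose and 0 fell (median 0.365) and 12 differed from PM alone. PM alone called 0 of these 27 with edgeR, DESeq2 or limma-voom, with 5 at an unadjusted p under 0.05 in edgeR, and metformin alone called 5 higher. With no filter on low counts, edgeR did call Hspa5 and Herpud1 of this list, and the heat shock gene Hspa8, higher with PM alone. To set the letters beside the values, 250 bases before a RefSeq start site (GRCm38.p6) of Hspa1b and Dnaja1 are printed 5′ to 3′ on the strand of the gene, with the heat shock motif GAANNTTC, which reads the same on both strands, in capitals.
Hspa1b, chr17:34959239-34959488, minus strand: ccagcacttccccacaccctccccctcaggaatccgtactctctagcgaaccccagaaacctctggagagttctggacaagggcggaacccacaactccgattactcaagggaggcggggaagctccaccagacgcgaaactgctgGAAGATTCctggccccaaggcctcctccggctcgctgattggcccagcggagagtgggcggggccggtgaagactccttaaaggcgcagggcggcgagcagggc
Dnaja1, chr4:40722218-40722467, plus strand: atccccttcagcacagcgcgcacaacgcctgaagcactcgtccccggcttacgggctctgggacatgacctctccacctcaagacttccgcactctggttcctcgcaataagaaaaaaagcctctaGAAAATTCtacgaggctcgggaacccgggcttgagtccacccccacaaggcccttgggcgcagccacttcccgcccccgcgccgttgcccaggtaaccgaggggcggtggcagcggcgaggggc
The motif lay 104 bases before the start in Hspa1b and 124 bases before 1 of the 3 RefSeq starts of Dnaja1. In the same 300-base windows it was held by 6.96% of the tested genes with a promoter, by 52.6% of the heat shock list (10 of 19) and by 0 of 23 genes of the ER stress list. The list shares count members whether called or not. Among newly moved genes that rose and differed from PM alone, 7.97% carried the motif (20 of 251). Among held genes that rose it was 11.1% (16 of 144).

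Hsph1, a chaperone of the HSP110 family (chromosome 5, 149614287 to 149636376), had 182, 191 and 162 CPM with metformin and PM, 69.4, 61.1 and 55.1 CPM with vehicle and PM, 159, 73.6 and 145 CPM with metformin and PBS, and 43.7, 63.3, 73.2 and 58.8 CPM with vehicle and PBS. Joint exposure lay above both vehicle groups, and metformin PBS 3 was the lowest of its group (joint change 1.58 ± 0.18; metformin alone 1.07 ± 0.19). Dnaja1, an HSP40 co-chaperone, rose by 1.29 ± 0.14 under joint exposure and by 0.96 ± 0.14 with metformin alone. Chordc1, a co-chaperone of HSP90, rose by 1.09 ± 0.11 under joint exposure and by 0.70 ± 0.11 with metformin alone. Hspa1b, an inducible HSP70, had 59.1, 54.6 and 38.6 CPM with metformin and PM, 11.6, 6.84 and 7.48 CPM with vehicle and PM, 50.2, 14.7 and 56.2 CPM with metformin and PBS, and 2.22, 9.40, 5.90 and 7.33 CPM with vehicle and PBS. It rose by 3.04 ± 0.36 under joint exposure and by 2.70 ± 0.38 with metformin alone. Its near-identical copy Hspa1a makes the split of reads between them uncertain.

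In the ER, Hspa5, the main chaperone of the lumen, had 1849, 2007 and 1892 CPM with metformin and PM, 1302, 1054 and 1191 CPM with vehicle and PM, and 868, 1076, 1132 and 909 CPM with vehicle and PBS (0.94 ± 0.12; edgeR adjusted p = 1.63e-05). Herpud1, which helps to clear misfolded proteins, rose by 1.17 ± 0.12 and was 0.81 ± 0.13 above PM alone. Xbp1, a transcription factor of the unfolded protein response, rose by 0.54 ± 0.06, and Creld2, a secreted ER stress protein, by 0.84 ± 0.11. Metformin alone raised Hspa5 by 0.51 ± 0.12 and Herpud1 by 0.71 ± 0.13, and its changes of 0.19 ± 0.07 in Xbp1 and 0.19 ± 0.12 in Creld2 were not called.

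**Figure D4:**
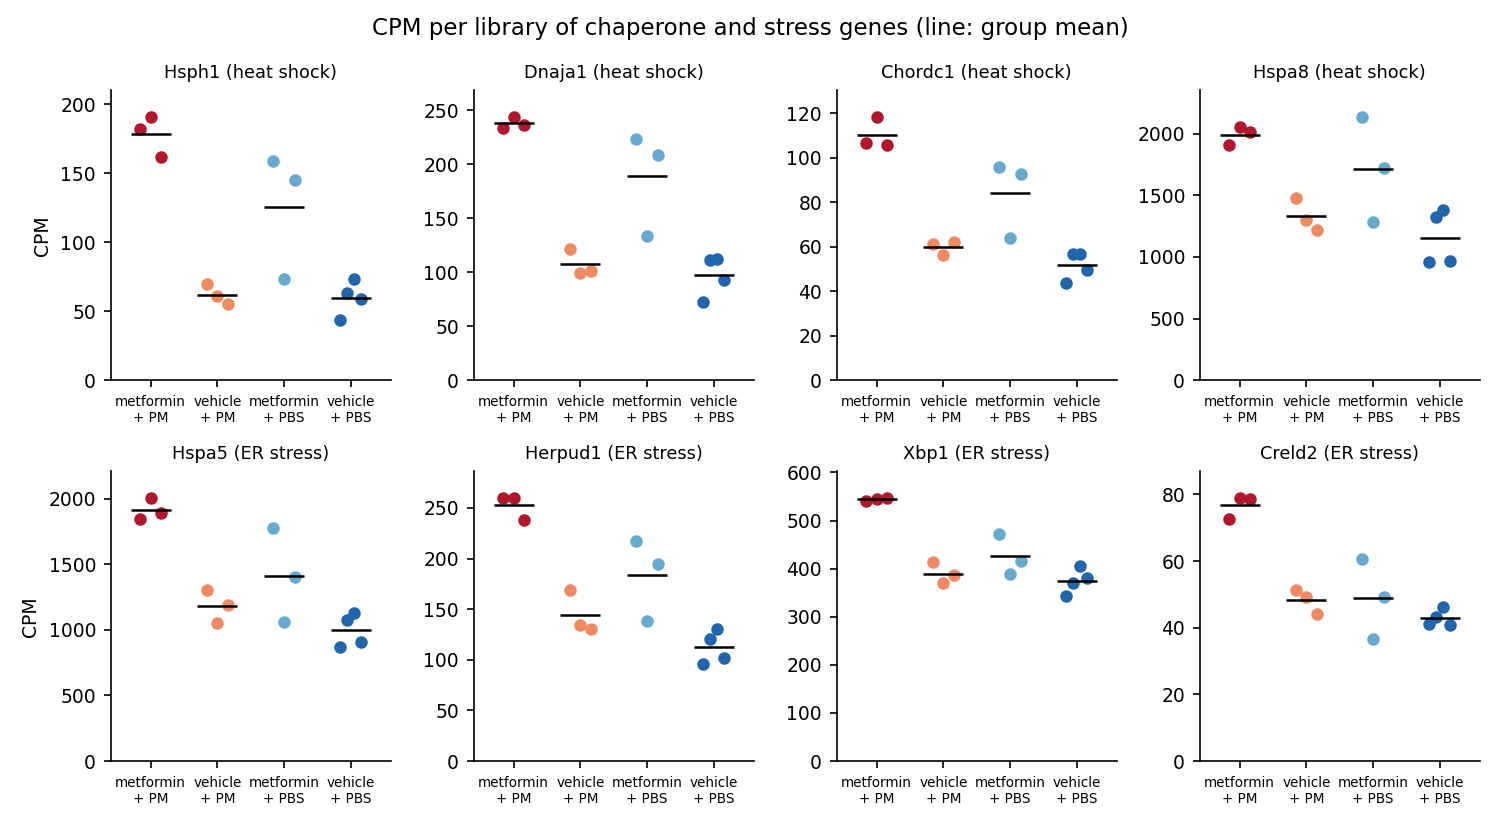
CPM per library (points) with the group mean (line) of 4 heat shock and 4 ER stress genes in the metformin with PM, vehicle with PM, metformin with PBS and vehicle with PBS groups; each y axis starts at 0. All 8 genes are higher in every metformin with PM library than in every vehicle with PM and vehicle with PBS library, and in the metformin with PBS group replicate 3 is the lowest library.

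Early response genes split between the classes. Of 31 tested, 10 rose and 6 fell (6 rose without metformin PM 1 or without vehicle PBS 4), 8 were held and 3 returned. Crem, a modulator of cAMP-responsive transcription, had 62.6, 41.1 and 40.9 CPM with metformin and PM, 16.8, 9.95 and 13.2 CPM with vehicle and PM, and 22.5, 11.9, 19.3 and 20 CPM with vehicle and PBS. Joint exposure stood above both other groups (1.40 ± 0.19). With no filter on low counts, Crem was called lower with PM alone. Klf2, a factor that quiets myeloid activation, moved the other way, with 81.8, 111 and 87.3 CPM with metformin and PM, 165, 145 and 143 CPM with vehicle and PM, and 147, 164, 195 and 148 CPM with vehicle and PBS (−0.81 ± 0.14).

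Genes of cholesterol synthesis and uptake were held more often than returned. So were the genes changed by PM alone as a whole, of which 56.9% were held and 9.69% returned. Of 25 tested, 14 rose and 0 fell (9 rose without metformin PM 3), with a median of 0.445, and PM alone called 17 of them higher with a median of 0.676. Of those 17, 12 were held, 2 returned, 2 unresolved and 1 part-way, and joint exposure lay below PM alone for 3 of the 25 by the test of that difference. Hmgcs1, an early enzyme of the pathway, had 145, 168 and 148 CPM with metformin and PM, 156, 166 and 161 CPM with vehicle and PM, and 98.9, 102, 95.8 and 109 CPM with vehicle and PBS. Both PM groups overlapped above control (0.60 ± 0.06). Insig1, which restrains sterol synthesis, rose by 0.95 ± 0.08 and was 0.23 ± 0.08 above PM alone, a difference called without vehicle PM 1 but not in the full fit.

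Genes of fatty acid and triglyceride metabolism moved in both directions, and the 4 named here were newly moved. Dgat2, which completes triglyceride synthesis, had 237, 181 and 191 CPM with metformin and PM, 117, 95.2 and 108 CPM with vehicle and PM, and 109, 93.2, 96.3 and 86.6 CPM with vehicle and PBS (1.08 ± 0.09). The fatty acid elongase gene Elovl6 rose by 1.59 ± 0.17. Srebf1, a regulator of fatty acid synthesis, fell by 0.53 on the log2 scale and Lpl, which releases fatty acids from lipoproteins, by 0.48. Without vehicle PBS 3, Lpl was called lower with PM alone too. Of 35 genes of fatty acid oxidation and PPAR action, 4 rose and 10 fell, beside 8.22% higher and 7.26% lower over all genes. Without metformin PM 3, 2 rose and 6 fell. Of the 35, 6 were held, Acot1 and Esrrg among them, 3 were newly moved and differed from PM alone, and 5 were newly moved without passing that test.

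Most of the oxidant defence genes called under joint exposure were held. Of 31 genes of the NRF2 antioxidant programme, 11 rose and 0 fell, of which 7 were held. The count was 6 without metformin PM 1 and 7 without metformin PM 4 or vehicle PBS 2, and 1 gene was lower without metformin PM 4 or vehicle PM 2. Slc7a11, named above, had 78.2, 75.3 and 60.1 CPM with metformin and PM, 70.1, 111 and 61.9 CPM with vehicle and PM, and 12, 16.9, 7.17 and 16.8 CPM with vehicle and PBS. Fth1, the ferritin heavy chain that stores iron, rose by 0.40 ± 0.07. Hmox1, which degrades haem, rose by 0.83 ± 0.22, a call absent with DESeq2 and without metformin PM 3. It lay at 182 to 266 CPM with metformin and PBS and at 138 to 171 CPM with vehicle and PBS. Mt2, a metallothionein that binds zinc, was newly moved (0.59 ± 0.11), though not called against PM alone without vehicle PM 3.

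The series title names thrombosis, so genes of coagulation and fibrinolysis were read as a group. Of 16 tested, 5 rose and 0 fell, with a median of 0.258. Plaur is described above. Thbd, which encodes thrombomodulin, a cofactor that turns thrombin towards anticoagulation, had 225, 208 and 207 CPM with metformin and PM, 127, 163 and 164 CPM with vehicle and PM, and 143, 148, 149 and 133 CPM with vehicle and PBS (0.57 ± 0.10). F10, coagulation factor X, was held, with 196, 221 and 199 CPM with metformin and PM, 186, 226 and 216 CPM with vehicle and PM, and 148, 138, 144 and 135 CPM with vehicle and PBS. Thbs1, a matrix protein that binds platelets, rose by 2.11 ± 0.39 and lay at or below 14.0 CPM in every library.

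Glucocorticoid-induced genes rose for 7 of 13 tested and fell for 0, with a median of 0.308. Without metformin PM 1 there was 1 fall. Besides Fkbp5, Klf9, a hormone-induced transcription factor, rose by 0.73 ± 0.09 and lay 0.44 ± 0.09 above PM alone, a difference not called without metformin PM 1. Of 22 genes of store-operated calcium entry, 2 were higher and 3 lower, counts to be read beside the 8.22% higher and 7.26% lower over all genes. The channel genes differed in direction, with Orai1 at 0.46 ± 0.08 and Orai2 at −0.39 ± 0.09 newly moved and Orai3 at −0.24 ± 0.06 held. The call of Orai1 against PM alone was lost without any 1 of the metformin PM or vehicle PM libraries, and that of Orai2 without metformin PM 1 or 3 or vehicle PM 2 or 3. Orai3 was not called with PM alone without vehicle PM 1 or 3, with DESeq2 or with no filter on low counts. The calcium sensor gene Stim1 was not called (−0.01 ± 0.06).

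Respiratory chain genes, which include the subunits of the complex that metformin inhibits, showed no calls among the nuclear-encoded genes of complex I. edgeR called 0 of 37 nuclear-encoded complex I genes under joint exposure, with 3 at an unadjusted p under 0.05, and DESeq2 and limma-voom also called 0. Their median change was 0.0832. Of 12 mitochondrially encoded genes tested, 2 rose, mt-Atp8 and mt-Nd6, which encodes a complex I subunit. That count became 0 without metformin PM 1 or 4 or vehicle PBS 1 or 4. Of 39 nuclear-encoded genes of complexes II to V, 2 rose (Atp5g3 and Atp5h), which became 0 without metformin PM 3 or 4.

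**Figure D5:**
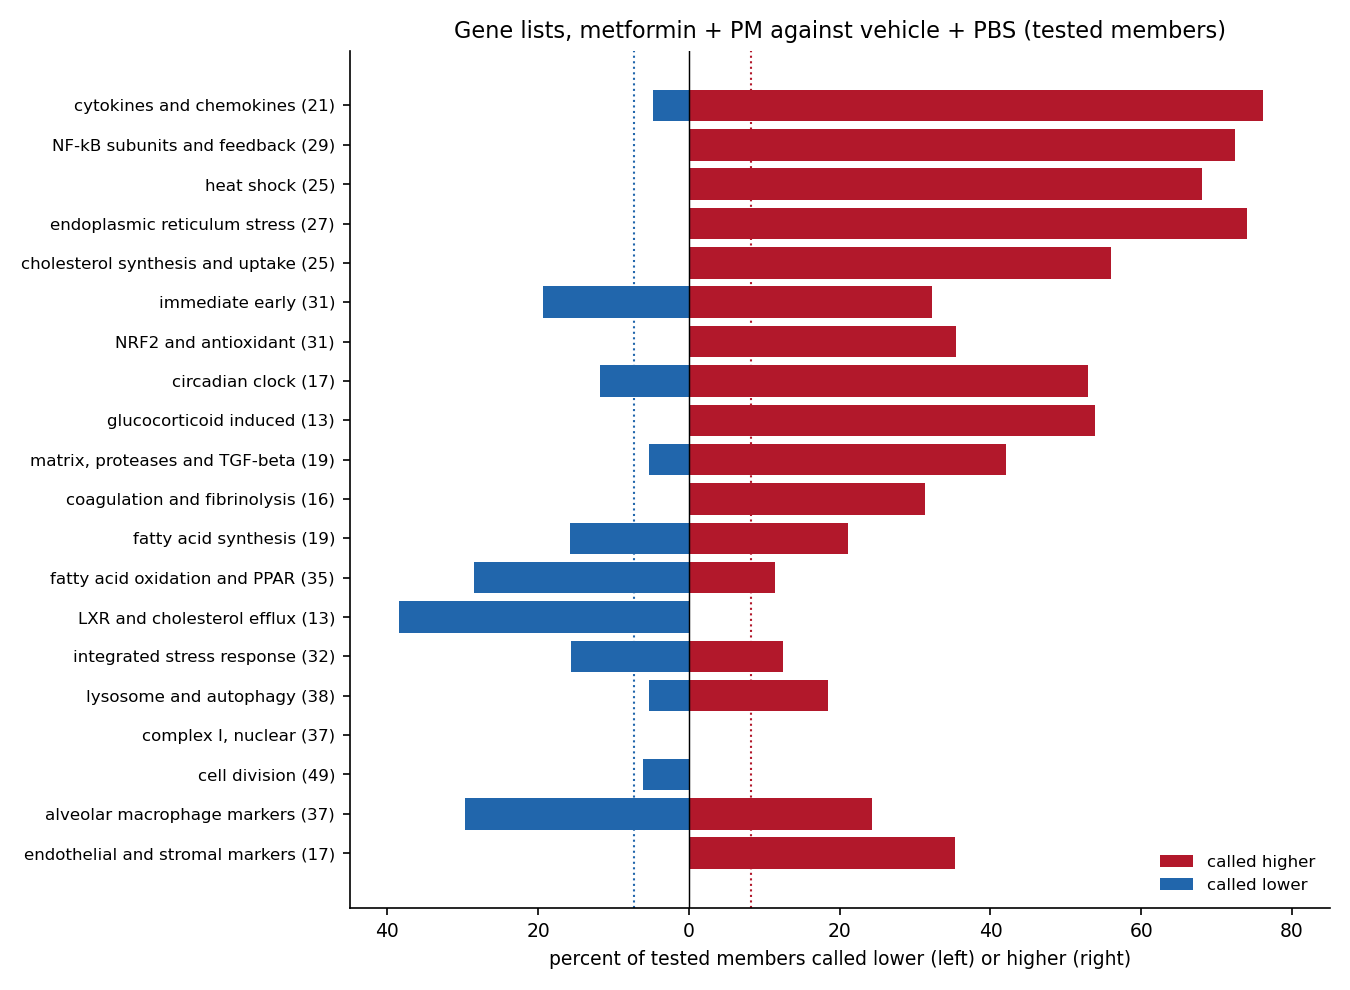
Percent of the tested members of 20 gene lists called higher (red, right) or lower (blue, left) with metformin and PM than with vehicle and PBS, with the number tested in brackets; the dotted lines mark the 8.22% higher and 7.26% lower over all genes. Cytokine, NF-kB, ER stress and heat shock lists reach furthest right, and no nuclear-encoded complex I gene is called.

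Markers of other cells were read beside these changes, and their counts beside the 8.22% higher and 7.26% lower over all genes. Alveolar macrophage markers summed to 44500 to 47200 CPM with metformin and PM and to 44300 to 48300 CPM with vehicle and PBS, with 9 of 37 higher and 11 lower. Monocyte-derived macrophage markers summed to 3790 to 4260 CPM with metformin and PM and to 2880 to 3290 CPM with vehicle and PBS. Of these 16 genes 7 rose and 1 fell, 7 of the 16 in the held class, among them Mmp12, a macrophage elastase (1.80 ± 0.24), and Itgam, the CD11b integrin chain (1.25 ± 0.17). The 7 rises include Mmp14 and Pf4, which passed the filter on low counts only through the PM groups. Mmp14 had 1 to 6 counts and Pf4 had 3 to 7 counts per vehicle PBS library. That both rose was therefore largely set by the filter. The 1 fall became 2 without metformin PM 4. These markers moved with the cytokine rises, and their part in them was not tested.

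Neutrophil markers summed to 737 to 740 CPM with metformin and PM and to 538 to 584 CPM with vehicle and PBS, with 3 of 8 higher. Those were Wfdc21, Hp and Trem1, while 6 of the 19 listed genes, Ly6g among them, had no counts in either group. Most of the sum was Trem1 in both groups, at 539.5 to 548.5 CPM with metformin and PM and 389.6 to 425.5 CPM with vehicle and PBS. Wfdc21 lay at 105.9 to 114.5 CPM with metformin and PM and at 63.78 to 66.96 CPM with vehicle and PBS. The rise of the sum is thus mainly that of these genes. Without vehicle PBS 4, 1 neutrophil marker was lower. Endothelial and stromal markers summed to 201 to 245 CPM with metformin and PM and to 145 to 189 CPM with vehicle and PBS, with 6 of 17 higher (3 without metformin PM 4) and a median of 0.914, against 0.039 with PM alone. Pecam1, an endothelial junction gene, had 5.09, 7.39 and 6.38 CPM with metformin and PM, 2.40, 2.95 and 4.39 CPM with vehicle and PM, and 3.01, 2.35, 1.75 and 3.39 CPM with vehicle and PBS. Epithelial markers summed to 318 to 378 CPM with metformin and PM and to 305 to 348 CPM with vehicle and PBS, with 3 of 14 higher, which became 0 without metformin PM 4 and 6 without metformin PM 1, and with 1 lower, which became 0 without metformin PM 1 or without vehicle PBS 1, 2 or 4. Of 20 lymphocyte markers only Jchain and Igkc, both of antibody-secreting cells, passed the filter on low counts. They passed it through the PM groups, with 0 to 3 counts of Jchain and 0 to 7 of Igkc per vehicle PBS library. That both rose was therefore largely set by the filter, and neither was called without metformin PM 1. Their list summed to 3.73 to 9.93 CPM with metformin and PM and to 2.22 to 4.86 CPM with vehicle and PBS. Igha, of the same cells, had 13.7, 5.73 and 6.54 CPM with metformin and PM, 7.20, 12.8 and 5.53 CPM with vehicle and PM, and 0.317, 2.51, 1.44 and 1.25 CPM with vehicle and PBS. Of eosinophil markers 1 of 2 tested rose (Ear6, 1.25 ± 0.18). Of 12 erythroid and platelet markers only Pf4 passed the filter, again through the PM groups, and it rose (2.37 ± 0.34). Pf4 had 3 to 7 counts per vehicle PBS library. Eosinophil markers summed to 47.1 to 54.6 CPM with metformin and PM and to 42.7 to 45.4 CPM with vehicle and PBS, with Epx, Prg2, Prg3 and Ccr3 at 0 in both groups. Erythroid and platelet markers summed to 4.20 to 6.83 CPM with metformin and PM and to 1.25 to 2.55 CPM with vehicle and PBS, with 5 of 12 at 0. The part of these markers in the results was not tested. The endothelial and stromal markers moved with the newly moved genes, and their part in those changes was not tested.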

How the data were processed

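RNA from sorted alveolar macrophages was sequenced as single reads of 75 bases, with 100 ng of RNA (RNA integrity number above 7) going into each library, per the labels' protocols. The authors deposited whole-number counts of reads per gene for 13 libraries, and bcl2fastq 2.19, TopHat2, HTSeq, edgeR and the mm10 build are named in the submitters' processing notes. The kit does not mark strand, so counts of overlapping genes are uncertain, among the genes named here for Il1b, Icam1, Slc30a1, Ndrg1, Ece1, Gpr171, Cytip, Hspa1a, Dnaja1, Srebf1, Orai1, Acaa1b, Ankrd44, Rhof and Slc15a3.

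Depth is the total count per library and limits the precision of genes with low counts. Of 43430 genes, 11906 passed edgeR's filter on low counts. Counts were scaled by TMM and fitted with edgeR 4.0.16 in R 4.3.3 (quasi-likelihood, 1 coefficient per group, all 13 libraries), with Benjamini-Hochberg adjustment over all genes tested. CPM are counts-per-million of TMM-scaled totals, and the SE is the log2 fold change divided by the root of its F statistic. Alternatives were DESeq2 1.42.0, limma-voom (limma 3.58.1), other scalings and filters, a replicate block, a fit of the compared groups alone, libraries thinned to equal totals (chosen after seeing the data) and leaving out each library. Python 3.11.15 drew the figures.

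Members and lists were chosen with earlier results of these data known. Genes were named as the 15 largest rises and falls of genes whose groups did not overlap and whose higher group averaged 5 CPM or more, the 8 with the lowest adjusted p per class and direction, 4 per list and a fixed panel. Cidec, Klf2, Hspa8, Marco, Ly6g, Acaa1b, Ankrd44, Rhof and Slc15a3 were chosen after their values were seen. The labels do not say that shared replicate numbers mark a shared animal or day.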

Additional observations from a re-analysis of the deposited data

Results flagged for a closer look

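Of 100 named genes checked, 3 had a vehicle PBS library that stood far from the other 3 of its group, measured as the gap to the nearest library over the range of the group. Chance marks about 1 in 20 groups. Ccrl2 had a highest control library of 246 CPM, Stim1 a highest control library of 107 CPM, and Hspa1a a lowest control library of 3.96 CPM.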

How the results depend on the processing

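None of the 1843 genes called in joint exposure against control changed direction in that comparison under the alternatives run. Of these calls, 953 were kept in every single-library leave-out, 908 of them under every setting. Leave-out counts ran from 671 to 973 genes higher and from 584 to 910 lower. DESeq2 called 789 higher and 719 lower, and limma-voom 993 and 872. With no filter on low counts there were 115 returned, 37 part-way, 97 exceeded and 18 crossed genes, and the fit of the compared groups alone gave 14 part-way genes. Across the leave-outs returned genes numbered 26 to 72, newly moved genes that differed from PM alone 299 to 543, newly moved genes not shown to differ 591 to 1282, unresolved genes 55 to 199, exceeded genes 20 to 53, part-way genes 1 to 10 and crossed genes 2 to 6. The cause was not tested. With a replicate block, 834 genes were higher and 758 lower, with 39 returned, 286 held and 374 newly moved and different from PM alone. Residuals of same-numbered libraries correlated at −0.0869, 0.00771 and −0.0554, so the numbers were not taken as pairs. The replicate block also ended the joint calls of Pnrc1 and Lrp4 and changed the class of Car4, Tgfbi and Orai2, among others. Depth limits genes with few counts, such as Abtb2 and Mmp14 in control libraries.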
